A study of Mus musculus with 12 samples.

Results

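Livers labelled DMH were compared with livers labelled CTL across all genes expressed in mouse liver, with 4 libraries in each group and 8 of the 12 libraries of the series in the comparison. The members were the count columns numbered 1 to 4 of each label, and 14643 of the 54838 genes in the table passed the filter on low counts and were tested. The groups are DMH, DM, which enters the model and is named only where its values bear on a result, and CTL. The labels spell out neither DM nor DMH, and they give no strain, age, genotype, agent, dose or time for any group. In its title the series names a red Chlamydomonas reinhardtii, a green alga, that holds much protoporphyrin IX, and effects on diabetes, but no label ties the alga to a group. Whether the 4 libraries of a group are 4 animals is not stated, so the p-values reflect library spread only, which may be technical.

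The liver makes most plasma proteins, stores and releases glucose and fat, and builds and breaks down haem. Under inflammation hepatocytes secrete acute phase proteins, under protein stress cells make heat shock chaperones, and through the day a transcriptional clock times much of liver metabolism. Protoporphyrin IX is the porphyrin into which ferrochelatase inserts iron to make haem, so the haem pathway is described here beside lipid, glucose and stress genes.

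Liver is the labelled source but the extraction text mentions retinas, so markers of both were checked. All 16 hepatocyte markers were tested, and their summed level ran over 38174 to 54409.7 CPM in DMH, against 63935 to 85581 CPM in CTL. Of these 15 had a log2 fold change below 0, with a median of -0.48. At an adjusted p under 0.05 4 fell (25%), beside 8.15% of all tested genes. The falls numbered 2 without CTL1, CTL2 or any DM library, and 1 without DMH1, DMH2 or DMH3. Of 15 photoreceptor and retina markers, 2 passed the filter, with a summed level of 10.6 to 29.4 CPM in DMH, against 13.7 to 55.3 CPM in CTL. Library totals were 14376021 to 16631264 counts in DMH and 15512699 to 16321134 in CTL. Levels are given as CPM, counts scaled to the library total with a TMM factor, a correction for differences in composition between libraries.

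Genes of the mitochondrial genome took 37.6%, 31.3%, 29.1% and 22.5% of the counts in DMH libraries 1 to 4, against 7.88%, 10.7%, 19.7% and 23.5% in CTL libraries 1 to 4. DMH libraries 1 to 3 lay above all CTL libraries, and DMH4 lay below CTL4, so the groups overlapped. The mean share was 30.1% ± 6.23 in DMH and 15.4% ± 7.36 in CTL (SD, n = 4 each), a difference of 14.7 percentage points (exact two-sided permutation test over 70 arrangements, p = 0.0571). Leaving out any one of the 8 libraries kept the difference between 12.2 and 17.4 points. A further 14.4% ± 3.01 of counts in DMH and 7.47% ± 3.16 in CTL fell on 7 pseudogenes on chromosome 1 whose 25-base words occur at 97.2% to 100% in mitochondrial genes (exact two-sided permutation test, p = 0.0286), so the counts of both are uncertain. The gene groups below were compared over these same libraries, and the fit that takes the share as a covariate is given with the counts of calls.

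**Figure D1:**
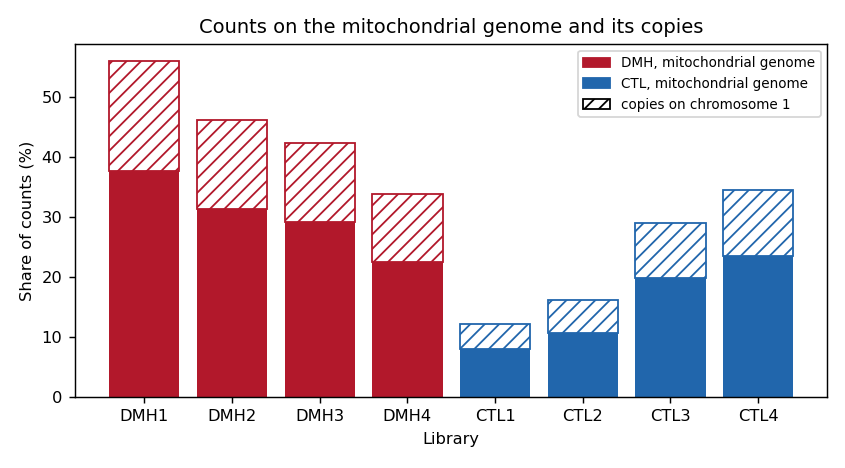
Share of counts in percent for each DMH and CTL library; solid bars are genes of the mitochondrial genome, and hatched bars stacked on them are the 7 copies on chromosome 1. DMH libraries 1 to 3 stand above every CTL library, while DMH4, at 22.5% on the mitochondrial genome, lies below CTL4, at 23.5%.

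Of the 14643 genes tested, 1062 rose in DMH (7.25%) and 1193 fell (8.15%) at an adjusted p under 0.05, together 15.4%. Changes of at least 2-fold made up 607 of the rises and 553 of the falls, and the median log2 fold change over all genes was -0.01, and at most 0.04 on leaving out one library. In 847 of the genes that rose and 1023 of those that fell the DMH and CTL libraries did not overlap. Groups that did not overlap were found at 1265 of all tested genes with DMH above (8.64%) and at 1591 with DMH below (10.9%). With the mitochondrial percentage of each library as a covariate edgeR called 0 genes in either direction, and 1632 had an unadjusted p under 0.05, against 4831 without the covariate. DESeq2 without the covariate called 1578 higher and 1615 lower, and limma on log2(FPKM + 1) called 271 higher and 788 lower. The rises numbered 365 without CTL2, 596 without DMH1, 602 without DMH2 and 559 without DMH3, and the falls 639 without CTL1, 258 without CTL2, 762 without CTL3, 382 without DMH1, 634 without DMH2 and 410 without DMH3. In all 12 fits that leave out one library, 312 rises and 223 falls kept their call.

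**Figure D2:**
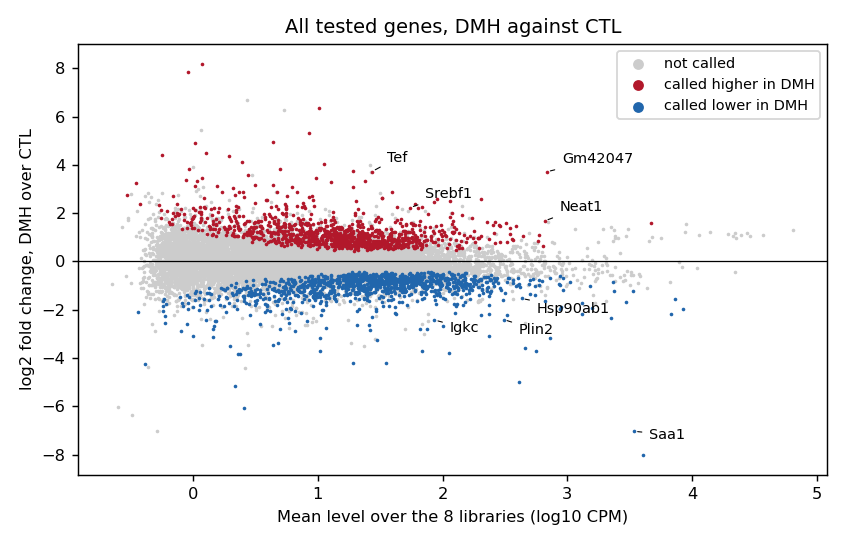
Log2 fold change of DMH over CTL against the mean level over the 8 libraries (log10 CPM), one point a tested gene; the 1062 genes called higher are red, the 1193 called lower are blue, and the others are grey. Saa1 lies at -7.03 and Gm42047 at 3.71, both away from the bulk of the abundant genes.

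Most tested heat shock chaperones, which hold and refold unfolded proteins, fell in DMH. Of 16, 11 fell (68.8%) and 0 rose, and the median log2 fold change was -1.15, beside -0.01 over all genes. Here and below, counts of calls in lists stand beside the 8.15% of all tested genes that fell and the 7.25% that rose. Hsp90ab1, a constitutive cytosolic HSP90 (ENSMUSG00000023944, chromosome 17, 45567775 to 45573271), had 185, 211, 169 and 318 CPM in DMH, against 597, 664, 749.7 and 539 CPM in CTL. Every DMH library lay below every CTL library, and the log2 fold change was -1.53 ± 0.23 (SE, edgeR adjusted p = 0.0105). The nucleotide exchange factor Hsph1 (ENSMUSG00000029657, chromosome 5, 149614287 to 149636376) had 13.7, 17.4, 10.5 and 23.3 CPM in DMH, against 55.1, 35.1, 89.2 and 51.4 CPM in CTL, again without overlap, a change of -1.83 ± 0.43 (SE, edgeR adjusted p = 0.0207). Hspa1b, a stress-inducible HSP70 (ENSMUSG00000090877, chromosome 17, 34956436 to 34959238), had 2.56, 3.93, 1.35 and 14.9 CPM in DMH, against 19.6, 46, 99.4 and 49.6 CPM in CTL. DMH4 was the highest of the DMH libraries and still lay below the lowest CTL library, and the log2 fold change was -3.23 ± 0.80 (SE, edgeR adjusted p = 0.0245). Its neighbour Hspa1a changed by -3.85 ± 0.77, but the pair share 65.5% of the 25-base words of Hspa1a and their counts are uncertain. The HSP40 cochaperone Dnajb1 changed by -1.53 ± 0.33 (SE, edgeR adjusted p = 0.0155) and the HSP70 cochaperone Bag3 by -1.28 ± 0.21 (SE, edgeR adjusted p = 0.0112). In the mitochondrial matrix, the chaperonin Hspd1 changed by -0.82 ± 0.18 (SE, edgeR adjusted p = 0.0166) and its partner Hspe1 by -0.93 ± 0.19 (SE, edgeR adjusted p = 0.0137). Exons of Hspd1 and Hspe1 overlap and Hspe1 shares 25.2% of its 25-base words with another annotated gene, so both counts are uncertain. Here and in the paragraphs below, counts and medians that moved by over 1.5 times on leaving out one library are given with that library in parentheses; the 11 falls of the list numbered 7 (CTL2, CTL3, DMH1 and DMH2) and 6 (DMH3). Hsph1 lost its call without DMH1 or DMH3 (adjusted p up to 0.0604) and Hspa1b without CTL2, CTL3, DMH1, DMH2 or DMH3 (adjusted p up to 0.0651).

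Promoters of 3 of the chaperone genes that fell are shown because heat shock factors bind inverted GAA repeats. The sequences are RefSeq's on GRCm38.p6, 250 bases before to 50 after the start of the gene, read 5′ to 3′ on the strand of the gene, with matches to GAANNTTC or TTCNNGAA in capitals; each motif is its own reverse complement, so both strands are covered, and matches may overlap.
Hsph1, chr5:149636287-149636586, strand -: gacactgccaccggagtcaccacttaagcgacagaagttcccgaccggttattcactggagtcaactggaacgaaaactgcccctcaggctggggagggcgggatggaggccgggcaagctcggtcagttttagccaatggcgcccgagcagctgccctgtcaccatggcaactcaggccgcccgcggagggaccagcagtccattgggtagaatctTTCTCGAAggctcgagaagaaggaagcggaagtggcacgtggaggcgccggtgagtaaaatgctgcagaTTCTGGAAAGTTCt
Hspa1b, chr17:34959189-34959488, strand -: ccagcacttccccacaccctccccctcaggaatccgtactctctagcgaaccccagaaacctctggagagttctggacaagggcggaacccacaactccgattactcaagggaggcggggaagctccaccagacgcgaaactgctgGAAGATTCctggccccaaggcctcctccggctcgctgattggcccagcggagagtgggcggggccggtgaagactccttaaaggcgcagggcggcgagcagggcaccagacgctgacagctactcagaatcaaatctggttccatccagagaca
Hspe1, chr1:55087898-55088197, strand +: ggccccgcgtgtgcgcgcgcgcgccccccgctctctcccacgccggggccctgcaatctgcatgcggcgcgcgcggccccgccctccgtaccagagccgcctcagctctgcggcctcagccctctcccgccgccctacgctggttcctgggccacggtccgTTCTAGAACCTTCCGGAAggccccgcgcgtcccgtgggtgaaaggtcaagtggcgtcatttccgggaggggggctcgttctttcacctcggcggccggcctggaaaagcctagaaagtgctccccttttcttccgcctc
The Hsph1 and Hspe1 windows hold 3 matches each and the Hspa1b window holds 1. Among other falls named above, Hspa1a and Bag3 held a match and Dnajb1 held none. Of the 16 chaperone genes, 12 had a promoter in the table, and 8 of these (66.7%) held a match, beside 4073 of all 27025 promoters (15.1%). A match describes letters and not a bound site.

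Acute phase proteins, plasma proteins that the liver secretes under inflammation, also mostly fell in DMH, and the spread within CTL was wide. Of 25 tested, 17 fell and 0 rose, with a median log2 fold change of -2.17. Serum amyloid A1, Saa1 (ENSMUSG00000074115, chromosome 7, 46740497 to 46742980), had 78.3, 13.9, 71.1 and 44.1 CPM in DMH, against 25737, 1103, 174 and 96.6 CPM in CTL. CTL1 was far above the other CTL libraries, and all 4 CTL libraries lay above all DMH libraries, with a change of -7.03 ± 1.68 (SE, edgeR adjusted p = 0.0223). Saa2, which shares 51.7% of its 25-base words with Saa1, changed by -8.02 ± 1.91 (SE, edgeR adjusted p = 0.0219). The fibrinogen chain gene Fga had 414, 357, 558 and 565 CPM in DMH, against 5133, 1658, 785 and 1059 CPM in CTL, a change of -2.19 ± 0.49 (SE, edgeR adjusted p = 0.018). C-reactive protein, Crp, averaged 109 ± 26 CPM in DMH and 285 ± 147 CPM in CTL (SD, n = 4 each) and changed by -1.39 ± 0.32 (SE, edgeR adjusted p = 0.0181). The haem-binding plasma protein Hpx had 3139, 1734, 2023 and 2871 CPM in DMH, against 27059, 7689, 5179.8 and 4146 CPM in CTL, with no overlap and a change of -2.17 ± 0.53 (SE, edgeR adjusted p = 0.0217). Without CTL1 the median of the list was -0.88 and 8 members fell; Saa1 changed by -3.11 (adjusted p = 0.0391) and Hpx by -1.19 (adjusted p = 0.0313). The 17 falls numbered 8 (CTL1), 7 (CTL2), 9 (DM1, DM2, DM3 and DM4), 1 (DMH1), 3 (DMH2), 2 (DMH3) and 10 (DMH4). Saa1 lost its call without DMH1, DMH2 or DMH3 (adjusted p up to 0.0592), Saa2 without DMH1, DMH2 or DMH3 (adjusted p up to 0.0609), Fga without DMH1 (adjusted p up to 0.0537), Crp without DMH1 (adjusted p up to 0.0548) and Hpx without DMH2 or DMH3 (adjusted p up to 0.0613). Of 22 complement genes 16 had a log2 fold change below 0, 2 fell (9.09%) and 1 rose (4.55%), with a median of -0.45. The median became -0.17 (CTL1) and -0.29 (DMH3); the falls numbered 0 (CTL1, CTL2, DM1, DM2, DM3, DMH1, DMH2 and DMH3), 1 (CTL3 and DM4) and 4 (DMH4) and the rises 3 (CTL1) and 2 (DMH4). The 1 that rose was Mbl2, a mannose-binding lectin, with 319.7, 326, 263 and 316 CPM in DMH, against 138, 214, 147 and 149 CPM in CTL and a change of 0.92 ± 0.19 (SE, edgeR adjusted p = 0.0137).

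Genes for making and clearing proteins fell in DMH more often than they rose. Among 75 cytosolic ribosomal proteins 39 fell and 0 rose, with a median log2 fold change of -0.71. Among 31 proteasome subunits 13 fell and 0 rose, with a median of -0.54, and Psma6 changed by -0.92 ± 0.16 (SE, edgeR adjusted p = 0.0112). Of 23 lysosome and autophagy genes 11 fell and 1 rose, with a median of -0.70. Npc2, which moves cholesterol out of lysosomes, had 14.9, 18.9, 16.2 and 23.4 CPM in DMH, against 97.5, 53.7, 36.9 and 32.7 CPM in CTL, without overlap, a change of -1.59 ± 0.30 (SE, edgeR adjusted p = 0.012). Ribosomal and proteasome genes have many processed pseudogenes, so their counts can be split between near-identical copies. The ribosomal falls numbered 22 (CTL1), 15 (CTL2) and 16 (DMH1 and DMH3). Proteasome falls numbered 3 (CTL2, DMH1 and DMH3), 4 (CTL3 and DMH2), 7 (DM1) and 8 (DM2 and DM3), and lysosome falls 7 (CTL1), 1 (CTL2), 5 (DMH1) and 4 (DMH3). The 1 lysosome rise was lost without DMH2.

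Nuclear genes of the respiratory chain and of mitochondrial translation fell in DMH more often than they rose, while 15 genes of the mitochondrial genome rose, 14 of them transfer RNAs and 1 protein-coding. Of 36 nuclear complex I subunits 8 fell and 1 rose (median -0.41), of 37 subunits of complexes II to V 12 fell and 0 rose (median -0.46), and of 32 mitochondrial ribosomal proteins 11 fell and 1 rose (median -0.43). Mdh2, the malate dehydrogenase of the citric acid cycle, had 32.7, 51.3, 56.5 and 73.1 CPM in DMH, against 131, 143, 118 and 92.6 CPM in CTL, without overlap, a change of -1.18 ± 0.23 (SE, edgeR adjusted p = 0.0123). Cox5a, a subunit of cytochrome c oxidase, had 13, 32.5, 33.5 and 43.7 CPM in DMH, against 122, 126, 73.5 and 57.8 CPM in CTL, a change of -1.63 ± 0.36 (SE, edgeR adjusted p = 0.0172). Cox5a lost its call without CTL2 (adjusted p up to 0.0544). Of 19 mitochondrial transfer RNAs tested 14 rose (73.7%) and 0 fell, with a median log2 fold change of 2.19, and the rises numbered 5 (CTL1), 2 (CTL2 and DMH1), 9 (CTL3), 6 (DMH2) and 8 (DMH3). Their median length was 68 bases. Of the 13 protein-coding genes of the mitochondrial genome 12 had a log2 fold change above 0, with a median of 1.17, and 1 rose. That count was 0 (CTL1, CTL2, CTL3, DMH1, DMH2 and DMH3), 4 (CTL4 and DMH4) and 3 (DM2). mt-Co1, the catalytic subunit of cytochrome c oxidase, had 129179, 95141, 87318 and 54846 CPM in DMH, against 26337, 17973, 44853 and 60438 CPM in CTL, so the groups overlapped, and its change of 1.29 ± 0.49 (SE, edgeR adjusted p = 0.0907) did not pass. The falls in complex I numbered 3 (CTL1), 0 (CTL2), 1 (CTL3) and 2 (DMH1 and DMH3), those in complexes II to V 3 (CTL1), 0 (CTL2), 4 (CTL3 and DMH1), 7 (CTL4 and DM2), 6 (DM1), 5 (DM3 and DMH2) and 1 (DMH3), and those among mitochondrial ribosomal proteins 2 (CTL1, CTL2, DMH1 and DMH3), 6 (CTL3, DM2 and DM3) and 7 (DM1 and DMH2). The 1 rise in complex I was lost without CTL1 to CTL3, DM1 to DM3 or DMH1 to DMH3, and that among mitochondrial ribosomal proteins without CTL2, DM1, DM2, DM4 or DMH1 to DMH3. Without DMH1 the median was -0.29 in complexes II to V and -0.25 in mitochondrial ribosomal proteins.

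**Figure D3:**
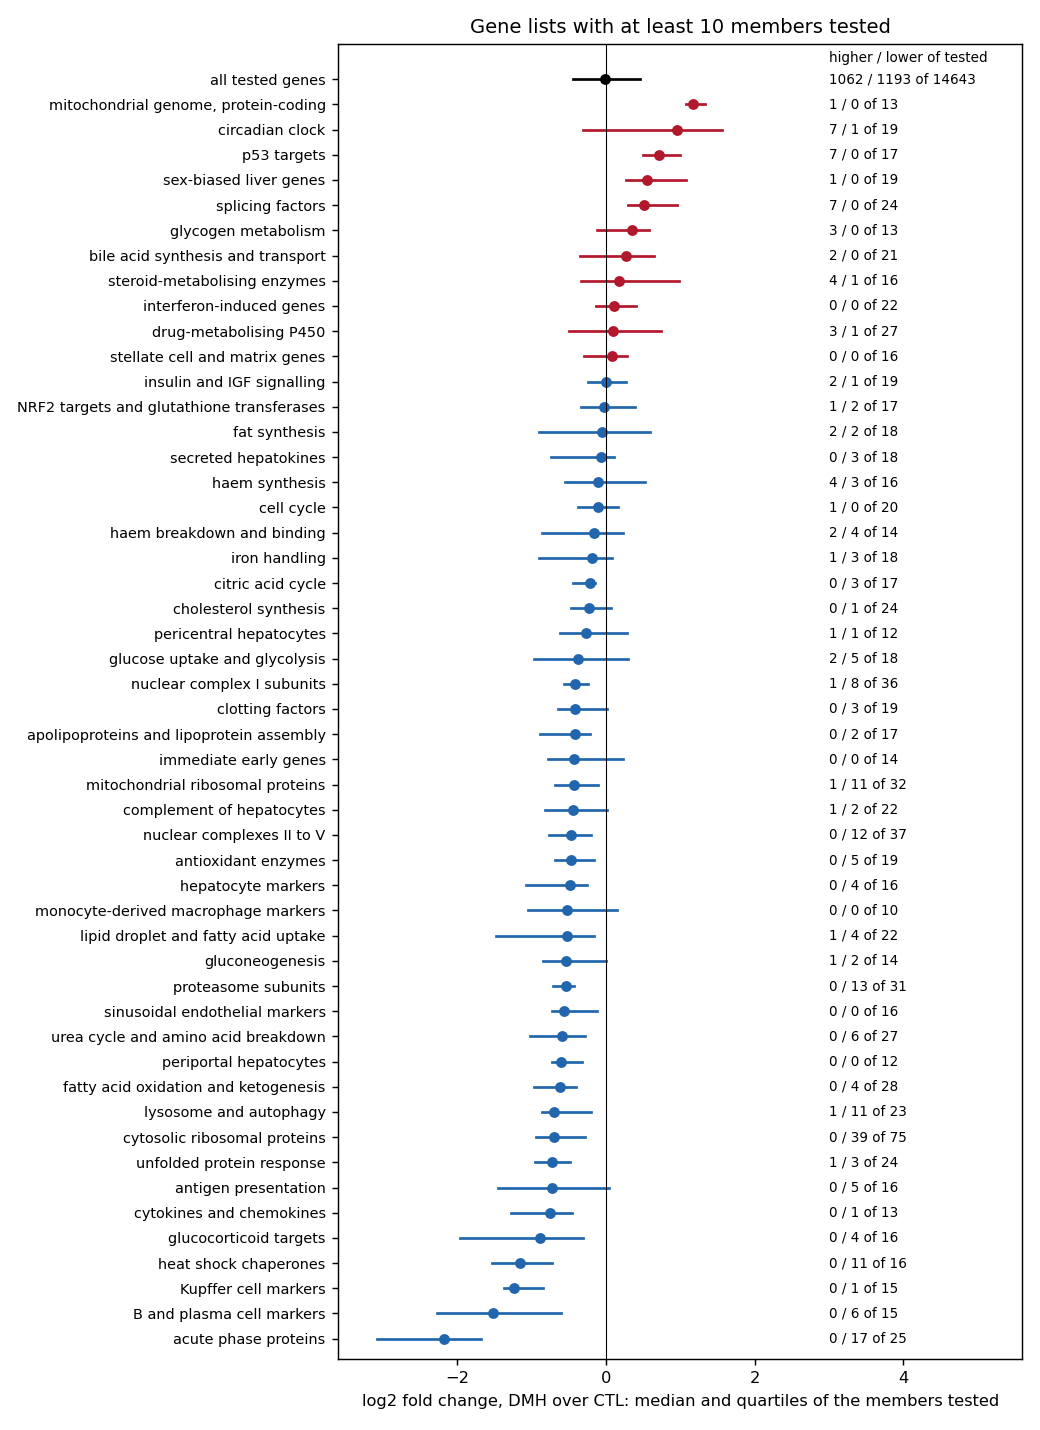
Median (point) and quartiles (line) of the log2 fold change of DMH over CTL for each gene list with at least 10 members tested, with the numbers called higher and lower of those tested at the right; red marks a median above 0, blue one below 0 and black all tested genes. Acute phase proteins have the lowest median of the lists drawn, at -2.17, and the circadian clock has a median of 0.95.

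Lipid droplet coat proteins were among the genes that fell. Of 22 genes for lipid droplets and fatty acid uptake, 4 fell (18.2%) and 1 rose (4.55%), with a median log2 fold change of -0.52. All tested genes gave 8.15% and 7.25%. Plin2, the main droplet coat protein of hepatocytes (ENSMUSG00000028494, chromosome 4, 86648386 to 86670060), had 47.4, 145, 38.7 and 162 CPM in DMH, against 256, 1019, 366 and 435 CPM in CTL. No DMH library reached the lowest CTL library, and the change was -2.40 ± 0.53 (SE, edgeR adjusted p = 0.0172). Plin5, a coat protein that ties droplets to mitochondria (ENSMUSG00000011305, chromosome 17, 56111601 to 56117596), had 11.1, 14.9, 10.6 and 25.2 CPM in DMH, against 48.2, 85.4, 76 and 62.7 CPM in CTL, also without overlap, a change of -2.14 ± 0.34 (SE, edgeR adjusted p = 0.0108). Cidec, which fuses droplets, had 0.543, 0.714, 1.69 and 2.89 CPM in DMH, against 1.66, 38, 21 and 17.3 CPM in CTL; CTL1 lay below DMH3 and DMH4, so the groups overlapped, and the change was -3.72 ± 0.86 (SE, edgeR adjusted p = 0.0198). Angptl4, a secreted inhibitor of lipoprotein lipase, changed by -1.54 ± 0.33 (SE, edgeR adjusted p = 0.0157). The 4 falls of the list numbered 2 (CTL2, DMH1, DMH2 and DMH3), and the rise was lost without CTL2 or DMH2. Cidec lost its call without CTL2, DMH1, DMH2 or DMH3 (adjusted p up to 0.0575). Of 28 genes of fatty acid oxidation and ketogenesis 4 fell (14.3%) and 0 rose. These falls numbered 8 (CTL1), 0 (CTL2, DMH1 and DMH3) and 7 (DMH4). Cpt1a, the carnitine palmitoyltransferase that admits fatty acids to mitochondria, changed by -0.55 ± 0.18 (SE, edgeR adjusted p = 0.0563), which did not pass.

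Srebf1 and Mlxipl, transcription factors of fat and sugar metabolism, rose in DMH. Srebf1, the sterol regulatory element-binding factor that drives fat synthesis (ENSMUSG00000020538, chromosome 11, 60199089 to 60222581), had 79.6, 96, 136 and 48.8 CPM in DMH, against 27.4, 10, 12.7 and 27.1 CPM in CTL, with no overlap, a change of 2.23 ± 0.44 (SE, edgeR adjusted p = 0.0132). Exons of Srebf1 overlap those of Rai1, so its level is uncertain. Mlxipl, which encodes the glucose-responsive factor ChREBP (ENSMUSG00000005373, chromosome 5, 135089890 to 135138382), had 418, 536, 658 and 389.8 CPM in DMH, against 155, 147, 232 and 231 CPM in CTL, with no overlap, a change of 1.39 ± 0.22 (SE, edgeR adjusted p = 0.0108). Of 18 fat synthesis genes 2 rose (11.1%), Srebf1 and Mlxipl themselves, and 2 fell (11.1%), Fads1 and Agpat2. All tested genes gave 7.25% and 8.15%. The falls numbered 1 (CTL2, DMH1 and DMH2). Fatty acid synthase, Fasn, changed by 0.26 ± 0.48 (SE, edgeR adjusted p = 0.744) and the desaturase Scd1 by -1.66 ± 0.60 (SE, edgeR adjusted p = 0.08), and neither passed. In glycogen metabolism 3 of 13 genes rose (23.1%) and 0 fell. The phosphorylase kinase subunit Phka2 had 66.6, 48.6, 34.7 and 25.8 CPM in DMH, against 14.5, 13.5, 13.5 and 13 CPM in CTL, without overlap, a change of 1.69 ± 0.30 (SE, edgeR adjusted p = 0.0118). Of 18 genes of glucose uptake and glycolysis, 5 fell (27.8%) and 2 rose (11.1%), Mlxipl again among the rises. The falls numbered 3 (CTL2 and DMH1) and the rises 1 (CTL1, CTL2, DMH1, DMH2 and DMH3). Lactate dehydrogenase A, Ldha, had 64.4, 149.6, 56.8 and 191 CPM in DMH, against 660.0, 803, 366 and 326 CPM in CTL, without overlap, a change of -2.22 ± 0.44 (SE, edgeR adjusted p = 0.0134), and phosphoglycerate kinase, Pgk1, changed by -1.28 ± 0.26 (SE, edgeR adjusted p = 0.0134); Pgk1 shares 55% of its 25-base words with Pgk1-rs7 and is uncertain. Of 14 gluconeogenesis genes 2 fell (14.3%) and 1 rose (7.14%), the rise near the share of all tested genes. The falls numbered 1 (CTL1, DM1, DM2, DM3, DM4, DMH1 and DMH2) and 0 (CTL2 and DMH3). The rise numbered 0 (CTL2, CTL3, CTL4, DM4, DMH1, DMH2 and DMH3). G6pc, the glucose-6-phosphatase that releases glucose from liver, changed by -1.14 ± 0.40 (SE, edgeR adjusted p = 0.0684) and Pck1, which makes phosphoenolpyruvate, by -0.57 ± 0.31 (SE, edgeR adjusted p = 0.225); neither passed.

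**Figure D4:**
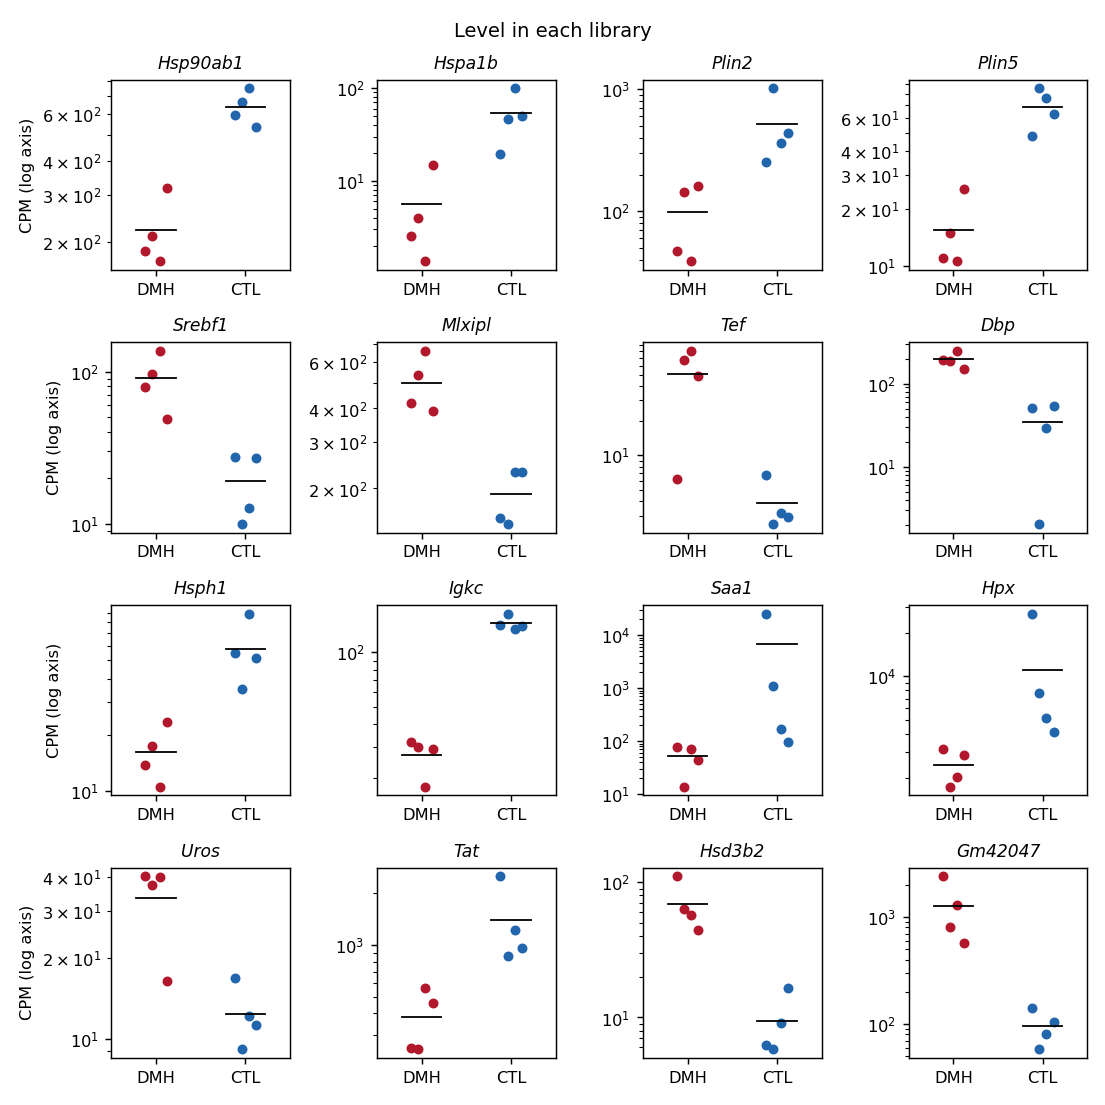
Level of 16 genes in each library, in CPM on log axes that differ between panels, with DMH left of CTL; points are libraries and the line is the mean of 4. Hsp90ab1, Plin5, Srebf1 and Hsd3b2 are separated between the groups, while in Tef a DMH library at 6.29 CPM lies below CTL1 at 6.76 CPM.

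Of 16 genes of haem synthesis 4 rose (25%) and 3 fell (18.8%) in DMH, beside 7.25% and 8.15% of all tested genes. Their median log2 fold change was -0.11, and it ranged over -0.20 to 0.08 on leaving out one library. The summed level was 765 to 985 CPM in DMH, against 976 to 1083 CPM in CTL. The 3 falls are not named here. Uros, uroporphyrinogen III synthase, which closes the porphyrin ring (ENSMUSG00000030979, chromosome 7, 133686243 to 133710072), had 40.4, 37.6, 40 and 16.5 CPM in DMH, against 16.9, 9.15, 12.2 and 11.3 CPM in CTL; DMH4 was the lowest DMH library and lay just below CTL1, and the change was 1.44 ± 0.27 (SE, edgeR adjusted p = 0.012). Ppox, which makes protoporphyrin IX from protoporphyrinogen (ENSMUSG00000062729, chromosome 1, 171275990 to 171281186), had 41.4, 46.4, 42.1 and 41.6 CPM in DMH, against 31.1, 20.5, 22.1 and 22.3 CPM in CTL, without overlap, a change of 0.84 ± 0.15 (SE, edgeR adjusted p = 0.0118); its exons overlap those of B4galt3. Slc25a38, the mitochondrial glycine carrier of haem synthesis, changed by 0.85 ± 0.17 (SE, edgeR adjusted p = 0.0135). Alas1, the rate-limiting enzyme of haem synthesis in liver, had 117, 111, 124 and 223 CPM in DMH, against 237, 169.9, 197 and 274 CPM in CTL and changed by -0.61 ± 0.25 (SE, edgeR adjusted p = 0.109), and ferrochelatase, Fech, had 63, 79.4, 72 and 62.2 CPM in DMH, against 65.8, 60, 63.4 and 55 CPM in CTL and changed by 0.18 ± 0.15 (SE, edgeR adjusted p = 0.428); neither passed. Of 14 genes of haem breakdown and binding 2 rose (14.3%) and 4 fell (28.6%). Haem oxygenase 1, Hmox1, changed by -0.95 ± 0.45 (SE, edgeR adjusted p = 0.163), which did not pass. Of 18 iron genes 1 rose (5.56%) and 3 fell (16.7%). The ferritin heavy chain Fth1 had 459.9, 589.9, 603 and 658 CPM in DMH, against 1251, 1318, 1047 and 855 CPM in CTL. The groups did not overlap, and the change was -0.95 ± 0.20 (SE, edgeR adjusted p = 0.0155). Fth1 lost its call without CTL2 (adjusted p up to 0.0527). Falls in haem synthesis numbered 0 (CTL2 and DMH3) and 1 (DMH1), in haem breakdown and binding 1 (CTL2, DMH2 and DMH3) and 2 (DM1, DM2, DM3, DM4 and DMH1), and in iron handling 1 (CTL1, DM1, DM2, DM3, DM4, DMH1, DMH2 and DMH3) and 0 (CTL2). Rises in haem breakdown and binding numbered 0 (CTL2, DMH1 and DMH3) and 1 (CTL3, CTL4, DM2 and DMH2), and the 1 rise in iron handling was lost without any library other than CTL1 or DMH4.

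Several clock genes and output factors rose in DMH. Of 19 tested 7 rose and 1 fell, with a median log2 fold change of 0.95. Tef, a PAR bZIP output factor (ENSMUSG00000022389, chromosome 15, 81802421 to 81826863), had 6.29, 67.5, 80.2 and 48.4 CPM in DMH, against 6.76, 2.54, 3.13 and 2.92 CPM in CTL. DMH1 resembled the CTL libraries, and the other 3 DMH libraries lay above all of them, a change of 3.72 ± 0.71 (SE, edgeR adjusted p = 0.0124). Dbp, a PAR bZIP factor of the same family, had 193, 190.0, 248 and 152 CPM in DMH, against 51.2, 2.04, 29.4 and 53.6 CPM in CTL, without overlap, a change of 2.52 ± 0.70 (SE, edgeR adjusted p = 0.0353); CTL2 was far below the other CTL libraries, and exons of Dbp overlap those of Sphk2. Bhlhe41, a repressor in the clock, had 6.21, 10.1, 8.11 and 6.97 CPM in DMH, against 1.98, 0.597, 2.48 and 1.91 CPM in CTL, without overlap, a change of 2.17 ± 0.49 (SE, edgeR adjusted p = 0.0179). Per3, a period gene, changed by 2.62 ± 0.70 (SE, edgeR adjusted p = 0.0316). The repressor Nfil3 fell, with a change of -0.93 ± 0.26 (SE, edgeR adjusted p = 0.0338). Dbp lost its call without CTL1, CTL3, DMH1, DMH2 or DMH3 (adjusted p up to 0.076), Per3 without CTL2, CTL3, CTL4, DMH1, DMH2 or DMH3 (adjusted p up to 0.077) and Nfil3 without CTL1, CTL2, CTL3, DM1, DMH1, DMH2 or DMH3 (adjusted p up to 0.0941). The 7 rises numbered 3 (CTL2 and DMH2), 4 (CTL3) and 2 (DMH3), and the 1 fall 0 (CTL1, CTL2, CTL3, DM1, DMH1, DMH2 and DMH3). The labels give no time of day for any library. The promoter of Tef is shown because CLOCK and BMAL1 bind the E-box CACGTG, a palindrome and so the same on both strands, which stands in capitals in the same RefSeq window. By the coordinates given, this window lies inside the gene as counted, because RefSeq places the start of Tef further into it.
Tef, chr15:81802423-81802722, strand +: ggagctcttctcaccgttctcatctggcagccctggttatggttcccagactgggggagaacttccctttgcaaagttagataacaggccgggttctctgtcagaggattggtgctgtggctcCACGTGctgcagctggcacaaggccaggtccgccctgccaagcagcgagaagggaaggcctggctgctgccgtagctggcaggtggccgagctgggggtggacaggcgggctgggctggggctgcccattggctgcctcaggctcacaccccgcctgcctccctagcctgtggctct
Among the promoters of 16 clock genes, 5 held this E-box (31.2%), beside 7.24% of all 27025. Of the clock genes named above as rising, Tef and Bhlhe41 held it in their window, and Dbp and Per3 did not.

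Of 17 tested targets of p53, the factor that halts damaged cells, 7 were called higher and 0 lower, with a median log2 fold change of 0.71. Eda2r, a receptor of the tumour necrosis factor family (ENSMUSG00000034457, chromosome X, 97333840 to 97377216), had 4.5, 3, 3.88 and 3.61 CPM in DMH, against 0, 0.199, 0.473 and 0 CPM in CTL; it was at 0 in a pair of CTL libraries, and the change was 4.38 ± 0.83 (SE, edgeR adjusted p = 0.012). Phlda3, an inhibitor of AKT signalling, had 3.42, 3.5, 3.04 and 3.35 CPM in DMH, against 0.701, 0.497, 1.54 and 0.89 CPM in CTL, without overlap, a change of 1.87 ± 0.41 (SE, edgeR adjusted p = 0.0159). Plk2, a polo-like kinase, changed by 1.99 ± 0.32 (SE, edgeR adjusted p = 0.0108). The 7 rises numbered 4 (CTL2). Of 24 splicing genes 7 rose and 0 fell, with a median of 0.52, or 0.27 without DMH3. The kinases Clk1 and Clk4, which phosphorylate splicing factors, changed by 0.95 ± 0.19 and 1.22 ± 0.19. Dhx15, a helicase that takes the spliceosome apart, had 29.1, 37.8, 37.3 and 21.8 CPM in DMH, against 9.05, 9.45, 7.45 and 7.12 CPM in CTL, without overlap, a change of 1.93 ± 0.27 (SE, edgeR adjusted p = 0.00761). The nuclear long RNA Neat1, on which paraspeckles form, had 623, 1077, 1357 and 943 CPM in DMH, against 361, 359, 341 and 189 CPM in CTL, also without overlap, a change of 1.68 ± 0.32 (SE, edgeR adjusted p = 0.012).

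Of 16 steroid-metabolising enzymes 4 rose (25%) and 1 fell (6.25%) in DMH, beside 7.25% and 8.15% of all tested genes. The fall numbered 0 (CTL1, DMH1, DMH3 and DMH4) and 2 (CTL3 and CTL4). Hsd3b2, a 3-beta-hydroxysteroid dehydrogenase, had 111, 63.8, 57.3 and 44.3 CPM in DMH, against 6.25, 5.82, 9.1 and 16.4 CPM in CTL, without overlap, a change of 2.88 ± 0.36 (SE, edgeR adjusted p = 0.00761). It shares 16.6% of its 25-base words with the neighbouring Hsd3b3, so its count is uncertain. Hsd17b6, which acts on androgens, averaged 179 ± 70.6 CPM in DMH and 49.9 ± 23.5 CPM in CTL (SD, n = 4 each), without overlap, a change of 1.84 ± 0.38 (SE, edgeR adjusted p = 0.014), and shares 13.8% of its words with Rdh16f1. The list of drug-metabolising P450 enzymes also holds a regulator, Nr1i3. Of its 27 genes 3 rose (11.1%) and 1 fell (3.70%), with a median log2 fold change of 0.09. The rises numbered 1 (CTL2 and DMH2) and the falls 2 (CTL1, DMH2 and DMH3) and 0 (CTL2, CTL3 and DMH1), and the median ranged over -0.01 to 0.16 on leaving out one library. Nr1i3, the nuclear receptor CAR that senses foreign compounds and 1 of the 3 rises, had 1097, 787, 705 and 646 CPM in DMH, against 321, 327, 429 and 429 CPM in CTL, without overlap, a change of 1.10 ± 0.21 (SE, edgeR adjusted p = 0.012). Nfe2l2, which encodes the oxidative stress factor NRF2, changed by 1.29 ± 0.25 (SE, edgeR adjusted p = 0.0124). In the list of NRF2 targets and glutathione transferases it was the 1 rise of 17 tested (5.88%), beside 2 falls (11.8%) and a median of -0.02. The falls numbered 0 (CTL2, CTL3, CTL4, DM1, DM2, DM3, DMH1 and DMH2) and 1 (DM4, DMH3 and DMH4), and the median ranged over -0.13 to 0.22. Cyp7a1, the rate-limiting enzyme of bile acid synthesis, had 37.7, 50.6, 348 and 31.7 CPM in DMH, against 31, 16.6, 27.4 and 35.3 CPM in CTL; DMH3 stood alone, and the change of 2.09 ± 0.72 (SE, edgeR adjusted p = 0.0687) did not pass. Among genes of the urea cycle and amino acid breakdown, 6 of 27 fell (22.2%) and 0 rose. Tat, the tyrosine aminotransferase, had 250.5, 248, 562 and 457 CPM in DMH, against 2507, 864, 1227 and 957 CPM in CTL, without overlap, a change of -1.87 ± 0.38 (SE, edgeR adjusted p = 0.0134); Agxt, which detoxifies glyoxylate, changed by -1.14 ± 0.22 (SE, edgeR adjusted p = 0.012) and the serine dehydratase-like enzyme Sdsl by -1.97 ± 0.30 (SE, edgeR adjusted p = 0.0101). The 6 falls numbered 3 (CTL1, CTL2, DMH1 and DMH2).

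Transcripts of antibody-making cells were among those that fell in DMH. Of 15 B and plasma cell markers tested 6 fell and 0 rose, with a median log2 fold change of -1.51. The immunoglobulin kappa constant region, Igkc (ENSMUSG00000076609, chromosome 6, 70726435 to 70726966), had 31.6, 29.6, 18 and 29.1 CPM in DMH, against 141, 164, 135 and 140.1 CPM in CTL, without overlap, a change of -2.42 ± 0.49 (SE, edgeR adjusted p = 0.0137). Igha, the constant region of IgA, had 8.07, 11.2, 3.21 and 3.42 CPM in DMH, against 30.5, 69.6, 39.5 and 42.7 CPM in CTL, without overlap, a change of -2.82 ± 0.61 (SE, edgeR adjusted p = 0.0172). The summed level of the list was 214 to 258 CPM in DMH, against 483 to 821 CPM in CTL. In these bulk samples fewer cells of a type and less RNA per cell cannot be told apart. The 6 falls numbered 2 (CTL2) and 3 (DMH3). Igha lost its call without CTL2 (adjusted p up to 0.0513). Of 15 Kupffer cell markers 1 fell (6.67%, beside 8.15% of all tested genes) and 0 rose, with a median of -1.23. Their summed level was 203 to 739 CPM in DMH, against 529.5 to 976 CPM in CTL. The fall numbered 0 (CTL1, CTL2, CTL3, DM1, DM2, DM3, DMH1, DMH2 and DMH3) and 5 (DMH4). Of 13 neutrophil markers 6 were tested and 1 fell, with a summed level of 7.07 to 24.4 CPM in DMH, against 17.7 to 306 CPM in CTL; CTL1 held the highest of these sums, and the fall numbered 0 (CTL1, CTL2, CTL3, DM1, DM2, DM3, DM4, DMH1, DMH2 and DMH3) and 4 (CTL4). Of 16 sinusoidal endothelial and 16 stellate cell and matrix genes 0 were called, with medians of -0.56 and 0.08. On leaving out one library these ranged over -0.86 to -0.24 and -0.12 to 0.61. Of 14 T and NK cell markers 6 were tested and 0 were called. The part of these cells in the other gene groups was not tested.

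By size of change, the largest rises and falls were taken among called genes whose groups did not overlap and whose higher group averaged at least 1 CPM. The predicted gene Gm42047 had 2407, 809, 1294 and 574 CPM in DMH, against 142, 58.2, 81.7 and 106 CPM in CTL, a change of 3.71 ± 0.49 (SE, edgeR adjusted p = 0.00761); Gm43549 changed by 3.74 ± 0.49 but shares 82.2% of its 25-base words with Gm42047. Gria3, a subunit of an AMPA glutamate receptor, had 21.8, 22.6, 15 and 6.77 CPM in DMH, against 0.637, 0.0995, 0.414 and 0.509 CPM in CTL, a change of 5.32 ± 0.98 (SE, edgeR adjusted p = 0.012). Psrc1, a microtubule-binding protein, had 17.8, 10.6, 5.57 and 3.35 CPM in DMH, against 0.446, 0.547, 0.828 and 0.763 CPM in CTL, a change of 3.84 ± 0.56 (SE, edgeR adjusted p = 0.00931). Got1l1 had 0 counts in all 4 CTL libraries and averaged 1.82 CPM in DMH, so it was at least 41.6-fold higher in DMH, against a floor of 3 counts over the group. Among the falls, Gk, the glycerol kinase that starts the use of glycerol (ENSMUSG00000025059, chromosome X, 85701937 to 85776819), had 8.15, 11.2, 14.4 and 5.59 CPM in DMH, against 80.4, 22.3, 183 and 223 CPM in CTL, a change of -3.69 ± 0.61 (SE, edgeR adjusted p = 0.0115). Pdk4, a kinase that shuts off pyruvate dehydrogenase, had 1.47, 3.14, 1.46 and 2.3 CPM in DMH, against 3.7, 52.8, 11.1 and 7.44 CPM in CTL, a change of -3.16 ± 0.78 (SE, edgeR adjusted p = 0.0242). Cyp17a1, a steroid 17-hydroxylase, had 3.96, 1, 7.49 and 1.84 CPM in DMH, against 234, 10.4, 10.2 and 11.8 CPM in CTL; CTL1 stood far above the other CTL libraries, and the change was -4.21 ± 1.13 (SE, edgeR adjusted p = 0.0314), or -1.55 without CTL1. Pdk4 lost its call without CTL2, DMH1 or DMH3 (adjusted p up to 0.0703) and Cyp17a1 without CTL1, DMH1, DMH2, DMH3 or DMH4 (adjusted p up to 0.0777).

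Calls differed with the kind and length of the transcript. Of 829 processed pseudogenes tested 9 rose and 244 fell (29.4%), beside the 8.15% of all genes that fell. The falls numbered 137 (CTL1), 73 (CTL2), 99 (DMH1), 150 (DMH2) and 115 (DMH3) and the rises 2 (CTL1), 1 (CTL2), 4 (CTL3), 5 (CTL4 and DM4), 3 (DMH1, DMH2 and DMH3) and 15 (DMH4). Of 334 long intergenic RNAs (lincRNA) 38 rose (11.4%) and 6 fell, and the rises numbered 14 (CTL2), 23 (CTL3 and DMH3) and 21 (DMH1) and the falls 2 (CTL1), 1 (CTL2, DMH1, DMH2 and DMH3) and 3 (CTL3). Of 11 immunoglobulin constant region genes 0 rose and 5 fell (45.5%), and the falls numbered 1 (CTL2), 3 (DMH1 and DMH2) and 2 (DMH3). Among the kinds named here the mitochondrial transfer RNAs, with 14 of 19 higher, had the highest share called. Among protein-coding genes in 4 equal bins of exonic length, short to long, 3.01%, 6.20%, 8.57% and 11.4% rose and 13.6%, 7.45%, 5.07% and 3.11% fell. The median log2 fold change in these bins was -0.28, -0.05, 0.07 and 0.20. In DM against CTL these medians were -0.15, -0.06, 0.02 and 0.13. Median exonic length was 5814 bases for protein-coding genes that rose and 2966 for those that fell, beside 4422 for all protein-coding genes tested. Ribosomal, proteasome and respiratory chain genes are mostly short, and the part of length in their falls was not tested.

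**Figure D5:**
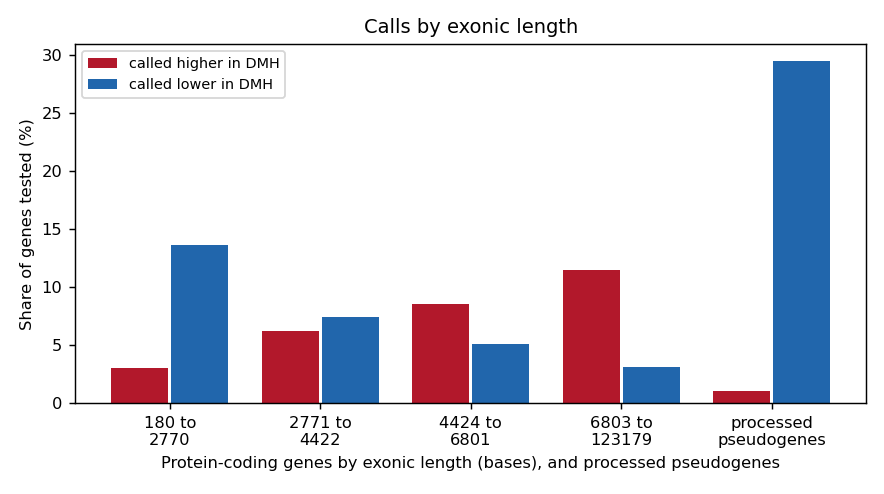
Share of genes tested (%) called higher (red) and lower (blue) in DMH against CTL, for protein-coding genes in 4 equal bins of exonic length in bases, and for processed pseudogenes. From the shortest to the longest bin the share called higher goes up to 11.4% and the share called lower goes down to 3.11%, and 29.4% of processed pseudogenes were called lower.

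DM libraries allow the DMH effect to be set beside that of DM, and both effects are measured against the same CTL libraries. Against CTL, 32 genes were called in DM (0.219%), beside 2255 in DMH. The number of calls does not give the size of the DM effect. For acute phase proteins the median log2 fold change was -2.17 in DMH and -2.50 in DM. It was -1.23 and -2.07 for Kupffer cell markers, and -1.51 and -1.48 for B and plasma cell markers. For p53 targets it was 0.71 and 0.71, for heat shock chaperones -1.15 and -0.32, and for clock genes 0.95 and 0.26. Taken directly, the median log2 fold change of DMH over DM was 0.14 for clock genes and -0.89 for heat shock chaperones. It was 0.32 for acute phase proteins, 0.92 for Kupffer cell markers, 0.25 for B and plasma cell markers and 0.02 for p53 targets. In each of these lists 0 members were called in DMH against DM. The log2 fold change of Plin2 was -2.40 in DMH and -1.51 in DM, and the difference between DMH and DM was -0.89 ± 0.51 (adjusted p = 0.339). For Hsp90ab1 it was -1.53 in DMH and -0.67 in DM, with a difference of -0.86 ± 0.23 (adjusted p = 0.115). Srebf1 gave 2.23 in DMH and 1.59 in DM, with a difference of 0.64 ± 0.42 (adjusted p = 0.407), and Igkc gave -2.42 in DMH and -2.84 in DM, with a difference of 0.41 ± 0.47 (adjusted p = 0.652). These 4 differences did not pass, so a difference between the DMH and DM effects was not shown at these genes. Over all genes 5 differed between DMH and DM (0.0341%). One of them was Cyp2c38, a drug-metabolising P450, which had 19, 29.1, 31.3 and 18.7 CPM in DMH, against 43, 42.8, 50.1 and 39.5 CPM in CTL; it changed by -0.84 in DMH and 0.48 in DM, a difference of -1.32 ± 0.19 (adjusted p = 0.0446). In DMH against CTL, Cyp2c38 lost its call without CTL2, CTL3 or DMH1 (adjusted p up to 0.0588). The difference between DMH and DM was not refitted with a library left out.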

How the data were processed

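RNA was sequenced from 12 libraries labelled liver, 4 each of DMH, DM and CTL. Per the series' design text, FastQC 0.11.8 checked the reads, Trimmomatic 0.36 trimmed them, Hisat2 2.1.0 placed them on GRCm38, and StringTie counted them. Which version, annotation and strand setting StringTie ran with is not given in the sources used here. Whole-number read counts for 54838 genes were deposited by the authors, and FPKM beside them, which served only in an alternative on log2(FPKM + 1). Genes that overlap others or have near-identical copies are uncertain, since shared coverage may have been split between them.

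Counts of all 12 libraries were fitted with edgeR 4.0.16 in R 4.3.3 (quasi-likelihood F test, robust, TMM factors, 1 mean per group, 9 residual degrees of freedom) on genes passed by filterByExpr (count 10, total 15). A gene was called at a Benjamini-Hochberg adjusted p under 0.05 over the 14643 genes tested. Log2 fold changes are DMH over CTL. The fits were tested on simulated counts with the same dispersion for every gene and libraries that differed only in total and in the set changes. That setting holds no spread in mitochondrial share and no outlying library, so it does not test the calls under those conditions. Named genes were the 15 largest rises and 15 largest falls among called genes without overlap between groups and with at least 1 CPM in the higher group, and, within each of 57 gene lists, the called members and the 3 with the smallest p; the text describes a subset of these, picked with their values known, and some named genes are not reported here. The members and lists were chosen with earlier results of these data known. Alternatives were other scalings and filters, DESeq2 1.42.0, limma 3.58.1 on FPKM, a replicate block, the mitochondrial percentage as a covariate, the 8 libraries alone and each library left out. Replicate pairs of a group differed by a chi-square of at least 62.2 per degree of freedom in CTL and 97.3 in DMH where a gene had 20 or more counts in both together, and no library was treated as a duplicate. Of the gene identifiers, 54809 were found in GENCODE M21, from which exonic lengths, exon overlaps and shared 25-base words were taken.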

Additional observations from a re-analysis of the deposited data

Results flagged for a closer look

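In each group of 4 libraries, the highest or lowest value was set against the spread of the other 3, for 72 genes in DMH and in CTL. A library stood apart in 11 of these 144 groups (7.64%), and chance alone flags about 1 in 20 groups. Among DMH libraries, DMH4 was the lowest for Uros at 16.5 CPM and for the splicing kinase Clk4 at 113 CPM, and the highest for Alas1 at 223 CPM. DMH3 was the lowest for Igkc at 18.0 CPM and for Mbl2 at 263 CPM, and DMH2 was the highest for Ppox at 46.4 CPM. Among CTL libraries, CTL2 was the lowest for Clk1 at 99.4 CPM and for Clk4 at 57.9 CPM. CTL4 was the highest for Scd1 at 6303 CPM and the lowest for Neat1 at 189 CPM. CTL1 was the highest for Cyp17a1 at 234 CPM, where the other CTL libraries held 10.2 to 11.8 CPM.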

How the results depend on the processing

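Against 1062 rises and 1193 falls, there were 271 and 788 with limma on log2(FPKM + 1), 395 and 234 with the 8 libraries alone, and 0 and 0 with the mitochondrial percentage as covariate, where 1632 genes had an unadjusted p under 0.05. Size factors of DESeq2's kind, the removal of mitochondrial genes and copies, the omission of the filter, a minimum count of 50, DESeq2 and a fold of 2 with unadjusted p kept both counts within 1.5 times of these. Leaving out one library gave 365 to 1586 rises and 258 to 1381 falls. With the replicate number as a block there were 502 rises and 499 falls; the numbers do not pair the libraries, since same-numbered DMH and CTL libraries correlated at 0.0015, -0.0131, -0.129 and -0.105 in their deviations from group means, and 0 of 8 libraries correlated best with their own number. Of the 72 genes named, all 62 that were called lost their call under the mitochondrial covariate. There mt-Co1, whose counts are part of that percentage, reversed to a log2 fold change of -0.065. No other gene named reversed in any setting run. Of the named calls, 18 were lost with the 8 libraries alone and 10 with limma on log2(FPKM + 1). The replicate block lost 10 and the omission of the filter 8. The cause of the lost calls and of the reversal was not tested. DESeq2 called G6pc, Scd1, Cpt1a and mt-Co1, which edgeR did not.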

Other observations

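Counts of further gene groups in DMH are given beside the 7.25% of all tested genes that rose and the 8.15% that fell, with the counts and medians that moved by over 1.5 times on leaving out the library in parentheses. Of 24 unfolded protein response genes tested 3 fell (12.5%) and 1 rose (4.17%), with a median log2 fold change of -0.72; the falls numbered 0 (CTL1, CTL2 and DMH1), 1 (CTL3, DM1, DM4, DMH2 and DMH3) and 9 (DMH4), and the rise 0 (CTL2, DMH2 and DMH3). Of 16 glucocorticoid targets 4 fell (25%) and 0 rose, with a median of -0.89, and the falls numbered 1 (CTL1, CTL2, DM1, DM2, DM3, DM4, DMH1 and DMH2) and 2 (DMH3 and DMH4). The 17 genes of apolipoproteins and lipoprotein assembly gave 2 falls (11.8%) and a median of -0.42, and the falls numbered 0 (CTL2) and 1 (CTL3, DMH1 and DMH3). The 24 cholesterol synthesis genes gave 1 fall (4.17%), which kept its call without DMH4 but was lost without any other library. Their median was -0.23, and it became 0.38 (CTL1), -0.42 (CTL2), -0.38 (CTL3), 0.08 (DMH1), -0.40 (DMH2), -0.45 (DMH3) and -0.09 (DMH4), so its direction turned without CTL1 or DMH1. Among 22 interferon-induced genes 0 were called, with a median of 0.10 that became -0.03 (CTL2), 0.22 (CTL3), 0.33 (CTL4), -0.22 (DMH1), 0.19 (DMH2) and 0.34 (DMH3). Among 19 sex-biased liver genes 1 rose (5.26%), lost without CTL2, CTL3, DMH3 or DMH4, and the median of 0.56 became 0.28 (CTL1), 1.03 (CTL2), 0.92 (CTL3), 0.87 (DMH1) and 0.19 (DMH4). The 12 periportal hepatocyte markers gave 0 calls and a median of -0.61, which became -0.22 (CTL1). The 12 pericentral markers gave 1 rise and 1 fall (8.33% each) and a median of -0.27, which became -0.18 (CTL1), -0.17 (CTL2) and -0.45 (CTL4); the rise numbered 0 (CTL2, CTL3, CTL4, DM2, DM3, DMH1 and DMH3) and 2 (DMH4) and the fall 0 (CTL1, CTL2, CTL3, CTL4, DM1, DM2, DMH1, DMH2 and DMH3) and 2 (DMH4).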
